A study of Mus musculus with 2 samples.

Results

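B cells of the postischemic mouse kidney were examined as barcodes chosen by the UMI counts (unique molecular identifiers, each standing for 1 captured RNA molecule) of 3 genes. A kept barcode was a member with a summed count of Cd79a, Cd79b and Ms4a1 of at least 3, no UMI of the T cell gene Cd3e, and fewer than 10 UMIs of C1qa, C1qb and C1qc (complement genes of macrophages) per 10000 UMIs. The rule found 81 of 8468 kept barcodes in the Cre- library and 72 of 9233 in the library labelled PHDTiEC, 153 of 17701 in all. Cd79a (chr7:24897381-24902197, GRCm38, plus strand) and Cd79b (chr11:106311341-106314762, minus strand) encode the signalling chains of the B cell receptor, and Ms4a1 (chr19:11249675-11266241, minus strand) encodes the surface protein CD20. Since these counts chose the members, their levels in members are given below as a description.

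The control was a Cre- littermate; its Phd alleles are not given in the labels. The PHDTiEC mouse carried Cdh5-CreERT2 together with floxed alleles of Phd1 (Phd1f/f), Phd2 (Phd2f/f) and Phd3 (Phd3f/f). The Cdh5 promoter drives tamoxifen-inducible Cre in endothelium. By this design the 3 floxed oxygen sensor genes Egln2 (Phd1), Egln1 (Phd2) and Egln3 (Phd3) are targeted in endothelial cells. Whether B cells kept these genes intact was not tested. Both were male mice of the age range 8 to 10 weeks at surgery, both had 25 min of unilateral renal ischemia and 4 injections of 3 mg tamoxifen, and the injured kidney was dissociated on day 14. There was 1 mouse and 1 library per genotype, so no test between the genotypes was possible, no p-value is given, and every interval below is a 95% interval for counting error only.

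B cells carry an antigen receptor made of an immunoglobulin heavy and light chain together with the CD79 pair. Naive mature cells place IgM and IgD of the same specificity on their surface, recirculate through lymphoid tissue with the help of CCR7, CXCR5 and S1P receptors, and present antigen on MHC class II. After activation they can switch to IgG, IgA or IgE, enter germinal centers, or become plasma cells that secrete antibody, and in injured kidney they are a small part of the leukocytes.

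The libraries held 136004367 UMIs (Cre-) and 146758812 UMIs (PHDTiEC), with medians of 7414.5 and 7815 UMIs per kept barcode. Of the kept barcodes, 27 occurred in both libraries, and no member barcode was shared. In endothelial barcodes, the targeted cells, Egln1 was higher in the library labelled PHDTiEC (66.4 CPM, counts per 1000000 UMIs, in Cre- and 163 CPM in PHDTiEC), as was Egln3 (21.2 and 124 CPM), while Egln2 was 42.4 and 40.2 CPM. Where the deleted parts lie relative to the 3′ ends counted here was not tested, so the Egln counts alone do not check the labels. Of the HIF target list, whose genes are known to rise when these sensors are lost, Slc2a1 was 22.6 and 71.8 CPM in endothelium, Pgk1 130 and 347 CPM, Ldha 326 and 630 CPM, and Slc16a3 4.98 and 58.4 CPM. Each was higher in the library labelled PHDTiEC. These 4 genes were picked after their values were seen, so their shared direction does not check the labels either. The other genes of the list are not reported here for endothelium.

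Only part of the members carried other B cell genes, and the label therefore held for a subset. Of the 81 and 72 members, 8 (Cre-) and 16 (PHDTiEC) had UMIs of Cd79b alone, and none of them had a UMI of Igkc, the kappa light chain constant gene. They were deep barcodes, with medians of 62123.5 and 54727 UMIs, and held 54.4% and 75.2% of all UMIs of the members. At least 5 UMIs of Atp6v1g3, a proton pump subunit of intercalated cells of the collecting duct, were found in 6 of the 8 and 13 of the 16. A further Cd79b-only barcode in Cre- had 324 UMIs of Lyz2, the lysozyme gene of myeloid cells, among 6881 UMIs, and 1 in PHDTiEC had 23 among 9523.

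A further 6 members in each library had Cd79a or Ms4a1 but lay above 3 times the median UMIs of the members (limits of 6936 and 10188 UMIs). Immunoglobulin RNA stood beside genes of other lineages in several of them. Igkc was counted in 5 of 6 and 6 of 6, while tubule markers reached up to 335 per 10000 UMIs in 1 of them in Cre-, haemoglobin genes up to 712 per 10000 in 1 in PHDTiEC, and Emcn, an endothelial sialomucin, gave 214 and 240 UMIs over the 6. Whether these barcodes held more than 1 cell was not tested, and no doublet caller was run.

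The remaining 67 and 50 members, called core members here, were at or below that depth limit and had at least 1 UMI of Cd79a or Ms4a1. This definition was chosen after the values were seen. The limit differed between the libraries because the median over all members did (2312 and 3396 UMIs). A limit of 7000 UMIs in both left 67 and 49. Core members had medians of 1990 and 2479 UMIs and of 871 and 976.5 genes, and they held 19.9% and 13.2% of the UMIs of the members. Every core member in Cre- and 49 of 50 in PHDTiEC had Igkc, and 64 of 67 and 48 of 50 had Ebf1, both genes outside the rule. The core members thus showed the markers of the label, and the Cd79b-only members did not.

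**Figure D1:**
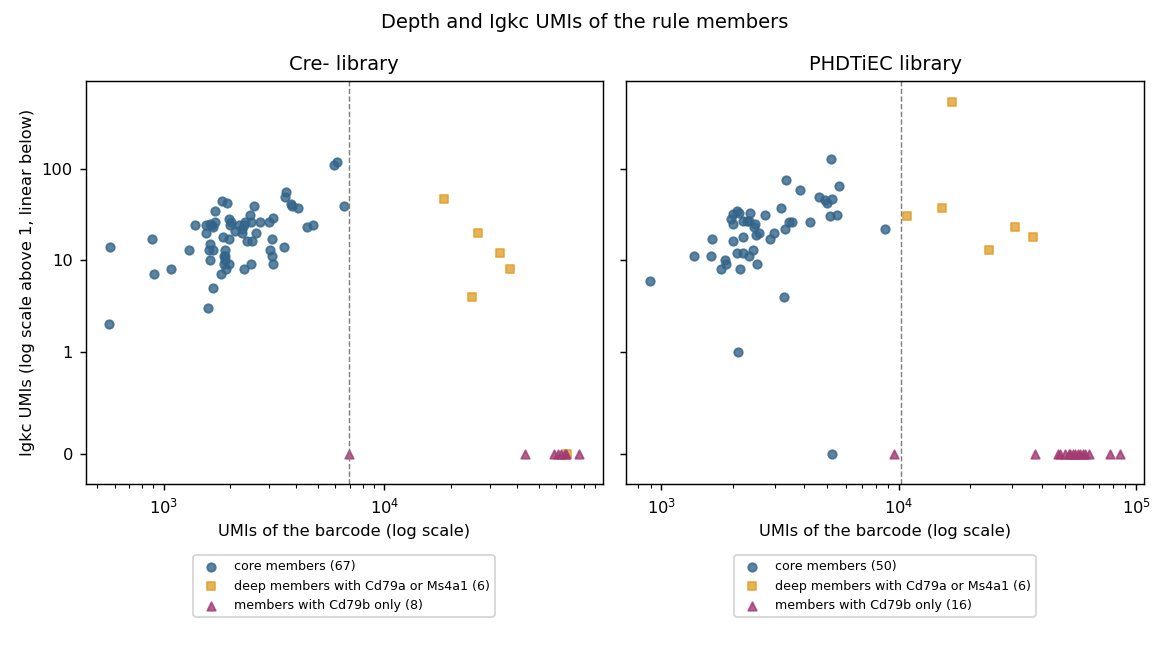
Igkc UMIs (y axis, log scale above 1) against the UMIs of the barcode (x axis, log scale) for every member, by library. Circles are core members, squares deep members with Cd79a or Ms4a1, triangles members with Cd79b only, and the dashed line is the depth limit (6936 UMIs in Cre-, 10188 in PHDTiEC). All Cd79b-only members lie at 0 Igkc UMIs, whereas 67 of 67 and 49 of 50 core members lie above 0.

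Near the threshold, 13 members in Cre- and 11 in PHDTiEC had a marker sum of exactly 3, of which 4 and 1 were core members. Barcodes just outside the rule, with a sum of 2, numbered 31 and 39. A UMI of Igkc or Ighm was present in 5 and 3 of those at 3, and in 7 and 4 of those at 2. The limits on Cd3e and C1q left out 13 and 7, and 24 and 22, barcodes that had passed the marker sum, of which 2 and 0 failed both limits.

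B cells by the rule made up 0.957% of kept barcodes in Cre- (exact Clopper-Pearson interval 0.760 to 1.19%) and 0.780% in PHDTiEC (0.611 to 0.981%). The ratio of the shares, PHDTiEC over Cre-, was 0.815 (interval 0.594 to 1.12), so the difference lay within counting error. For core members the shares were 0.791% (0.614 to 1.00%) and 0.542% (0.402 to 0.713%), with a ratio of 0.684 (0.475 to 0.986). With a minimum of 1000 UMIs and 500 genes per barcode the core ratio was 0.724 (0.499 to 1.05), and with a marker sum of at least 6 it was 0.861 (0.576 to 1.29), so that these intervals include 1. Among barcodes with a UMI of Ptprc, the pan-leukocyte gene CD45, the core ratio was 0.685 (0.423 to 1.11). Other classes, named by their own markers, gave ratios of 1.09 (T cells), 0.996 (macrophages), 1.08 (dendritic cells), 0.841 (neutrophils), 1.13 (proximal tubule), 1.26 (endothelium) and 1.61 (fibroblasts). The variation of such shares between mice is unknown, and fewer B cells and more of the other cells cannot be told apart in a share.

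Levels of the rule genes in core members were close in the libraries. Cd79a was 2437 CPM in Cre- and 2428 CPM in PHDTiEC, Cd79b 1259 and 1096 CPM, and Ms4a1 819 and 761 CPM. Per core member, Cd79a ranged from 1 to 27 UMIs with a median of 4 in Cre-, and from 1 to 18 UMIs with a median of 7 in PHDTiEC. In kept barcodes outside the rule, Cd79a was 0.936 and 0.582 CPM and Ms4a1 0.414 and 0.351 CPM, while Cd79b was 8.18 and 7.76 CPM.

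**Figure D2:**
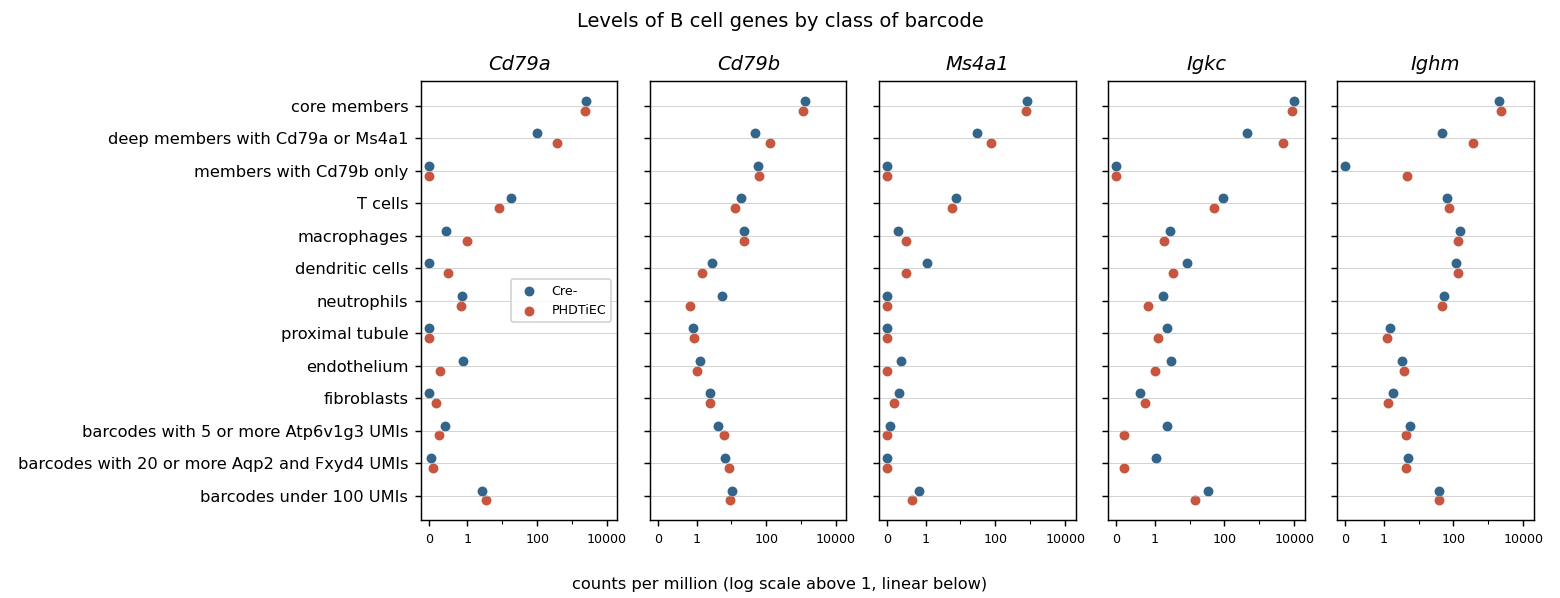
CPM (x axis, log scale above 1 and linear below) of Cd79a, Cd79b, Ms4a1, Igkc and Ighm in 13 classes of barcodes, for Cre- (blue) and PHDTiEC (red); each point is the sum over 1 class in 1 library. Core members lie highest for every gene shown, and macrophages had 23.3 and 22.4 CPM of Cd79b and 157 and 135 CPM of Ighm.

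Cd79a is shown with its promoter because it carried the most UMIs of the 3 rule genes in core members and is the only one of them with a promoter in the RefSeq-derived table used here. The stretch lies upstream of every annotated start of the gene, and capitals mark an E-box (CAGGTG, searched on both strands), the kind of site bound by E proteins such as E2A.

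Cd79a promoter, chr7:24897247-24897380, GRCm38.p6, plus strand: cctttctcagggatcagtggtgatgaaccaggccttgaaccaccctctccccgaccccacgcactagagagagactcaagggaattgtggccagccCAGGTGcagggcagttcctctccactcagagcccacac

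Of the 27 rule and B cell identity genes, 16 matched the table by symbol, with 19 promoters. In the 250 bases before the RefSeq start, CAGGTG occurred in 7 of these 19 (Bank1, Cd22, Cd37, Cd79a, Fcrla, Ralgps2 and Tnfrsf13c) and in 17.2% of all 32851 promoters. A palindromic consensus of the Ebf1 motif, searched on both strands, occurred in 1 of 19, that of Cd22, and in 0.779% of all, and the octamer ATTTGCAT in 0 of 19 and 1.60% of all. These are matches of letters, and binding was not measured.

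Outside the rule genes, core members were set against the kept barcodes that were not members. Among the 299 genes with at least 100 UMIs in core members and seen in at least 20% of them, 44 were at least 4-fold higher in both libraries, which is 14.7%. The B cell identity list had 10 of its 12 entering genes in that set, the immunoglobulin constant list 6 of 6, the follicular list 5 of 6 and the homing list 4 of 4. Since the members were selected on B cell genes, this is a description of the cells.

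Several immunoglobulin constant genes had the highest ratios. Igkc was 9793 CPM in core members and 6.27 CPM in other barcodes of Cre-, and 8680 and 3.09 CPM in PHDTiEC. Ighd, the constant region of IgD, was 713 and 0.747 CPM in Cre- and 558 and 0.638 CPM in PHDTiEC. Ighm, the constant region of IgM, was 1972 and 45.4 CPM in Cre- and 2237 and 41.6 CPM in PHDTiEC, so its level outside the members was the highest of these 3 genes. Per core member, Igkc ranged from 2 to 118 UMIs with a median of 20 in Cre- and from 0 to 126 with a median of 24 in PHDTiEC, and Ighm from 0 to 19 with a median of 4 and from 0 to 25 with a median of 5. The ranges of the libraries overlapped almost fully for both genes.

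Among the transcription factors, Ebf1, which specifies the B lineage with E2A and Pax5, reached 2016 CPM in Cre- and 1680 CPM in PHDTiEC core members against 45.4 and 40.6 CPM elsewhere. Among the other classes, endothelium had the highest Ebf1 level, 604 and 474 CPM, with a UMI in 89.2% and 80.0% of barcodes. Ets1 and the NF-κB subunit gene Rel, which many leukocytes use, were lower in contrast, with log2 ratios of 3.77 and 3.74 for Ets1 and 3.74 and 3.45 for Rel.

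Among the genes with high ratios, Fcmr, Ly6d and Bank1 encode surface or signalling proteins of B cells. Fcmr, the receptor for IgM, was 688 CPM in Cre- and 564 CPM in PHDTiEC against 0.945 and 0.718 CPM elsewhere. Ly6d, a surface protein of committed B cells, was 1600 and 1398 CPM against 8.96 and 8.10 CPM. Bank1, a scaffold of B cell receptor signalling, was 447 and 459 CPM against 2.91 and 3.47 CPM. The antisense gene Gm31243 (chr3:135904344-136167184) was 403 and 328 CPM against 0.873 and 1.25 CPM. The strand setting of the counting is not given in the sources used here. Whether reads of Gm31243 were kept apart from those of genes it overlaps was not tested. Other signalling genes were shared with myeloid cells: Blnk, a B cell linker protein, was 126 and 139 CPM in macrophages, and Cd72, an inhibitory receptor, 230 and 227 CPM. Of the 30 genes of the B cell receptor signalling list, 2 entered and 1 was at least 4-fold higher in both libraries.

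**Figure D3:**
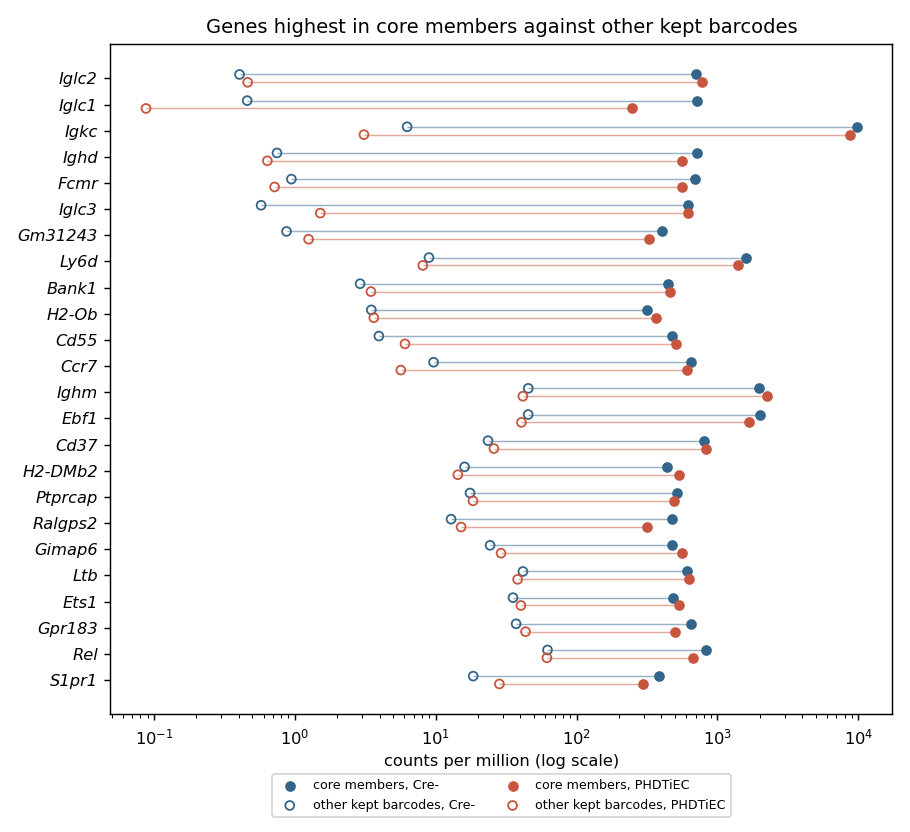
CPM (x axis, log scale) of the genes with the highest ratio of core members (filled) over other kept barcodes (open) in both libraries, without the rule genes; blue is Cre- and red PHDTiEC. Filled points of the libraries lie close together for most genes, and Iglc1 has the widest gap among the immunoglobulin genes (719 and 249 CPM).

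The antigen presentation genes were high in core members. Cd74, the invariant chain, was 11058 CPM in Cre- and 10727 CPM in PHDTiEC, with a UMI in every core member of both libraries. It was also high in macrophages (14934 and 12909 CPM) and dendritic cells (17315 and 18346 CPM), and lower in neutrophils (850 and 500 CPM). H2-Aa, H2-Ab1 and H2-Eb1, the class II chains, lay between 3306 and 4217 CPM in Cre- and between 3018 and 3878 CPM in PHDTiEC. Of the 8 genes of this list that entered, 2 were at least 4-fold higher than in other barcodes, H2-Ob and H2-DMb2. H2-Ob, part of the class II modulator that B cells use, was 316 and 367 CPM against 3.49 and 3.64 CPM, and H2-DMb2 was 440 and 531 CPM, with log2 ratios over other barcodes of 4.78 and 5.21.

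Receptors of recirculating lymphocytes were high in core members. Ccr7, the receptor that guides cells into lymphoid tissue, was 645 CPM in Cre- and 610 CPM in PHDTiEC against 9.66 and 5.65 CPM elsewhere. S1pr1, the egress receptor, was 385 and 295 CPM against 18.5 and 28.4 CPM, and Gpr183, an oxysterol receptor that positions B cells, was 651 and 499 CPM against 37.3 and 43.4 CPM. Fcer2a, which encodes CD23 of follicular cells, had 38 and 41 UMIs in 28 and 23 core members.

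Nearly every core member had transcripts of an unswitched receptor. Ighm was counted in 64 of 67 core members in Cre- (95.5%, exact interval 87.5 to 99.1%) and 48 of 50 in PHDTiEC (96.0%, 86.3 to 99.5%). Ighd was counted in 53 of 67 (79.1%, 67.4 to 88.1%) and 35 of 50 (70.0%, 55.4 to 82.1%), and both together in 50 and 35. As background, neutrophils, whose median depth was close to that of core members (1899 and 1886.5 UMIs), had Ighm in 13.6% and 10.9% of barcodes, Ighd in 0.239% and 0%, and Igkc in 0.477% and 0.260%. After thinning every core member to 1000 UMIs, which left out 4 and 1 shallower members, Ighm remained in 85.7% and 83.7%, and Ighd in 52.4% and 42.9%.

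Switched isotypes were rare, with a UMI in 2 core members of each library. Ighg1, Ighg2c and Ighe had 0 UMIs in core members of both libraries, Ighg2b had 1 and Ighg3 had 2 in Cre- and 0 in PHDTiEC, and Igha had 0 in Cre- and 11 in PHDTiEC. UMIs of a switched isotype without Ighm or Ighd occurred in 0 of 67 core members in Cre-, which allows a share of members with such UMIs of up to 4.48%, and in 1 of 50 in PHDTiEC (2.00%, 0.0506 to 10.6%). The IgG genes are near-identical in parts, so the split among them is uncertain.

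Jchain, the joining chain of secreted IgM and IgA, was counted in 2 members, both in PHDTiEC. The deep one, with 16743 UMIs, had 115 UMIs of Jchain, 526 of Igkc, 280 of Igha, 22 of Ighg2b and 51 of Mzb1, a chaperone of antibody-secreting cells, with no UMI of Ighm. The other, a core member with 5199 UMIs, had 7 UMIs of Jchain, 126 of Igkc and 10 of Igha, and still had 11 UMIs of Ms4a1. In Cre-, 0 of 81 members had a UMI of Jchain, which allows a share of members with a UMI of up to 3.70% and sets no limit on cells that express it. These are 2 barcodes of 1 mouse, and no comparison between the genotypes can be made from them.

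Light chain use was mainly kappa. Lambda constant genes (Iglc1, Iglc2 and Iglc3) gave 329 of the light chain UMIs against 1579 of Igkc in Cre- (17.2% lambda) and 252 against 1323 in PHDTiEC (16%). Lambda exceeded kappa in 1 core member in Cre- and 3 in PHDTiEC, while 63 of 67 and 42 of 50 had at least 1 lambda UMI. In neutrophils, Iglc1, Iglc2 and Iglc3 had 0 UMIs in both libraries. Iglc1 was 719 CPM in Cre- and 249 CPM in PHDTiEC, with 29.3% and 28.9% of its UMIs in 1 member. Iglc2 and Iglc3 are near-identical copies, and their separate values are uncertain.

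V genes, which set the specificity of a receptor, were seen at a low depth. In core members, 58 V gene UMIs fell in 43 of 117 members and on 38 V genes, 25 of them seen in Cre- and 18 in PHDTiEC, with 5 in both. The most members any V gene had was 3, for Ighv5-16, all in Cre-, and for Iglv3, 1 in Cre- and 2 in PHDTiEC. Ighv14-4 and Ighv5-4 had 3 UMIs each, in 2 members of different libraries, Ighv1-26 had 3 UMIs in 2 members of PHDTiEC, and Igkv1-110 and Igkv6-23 had 3 UMIs in 2 members each. Many V genes are near-identical, so these counts are uncertain.

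**Figure D4:**
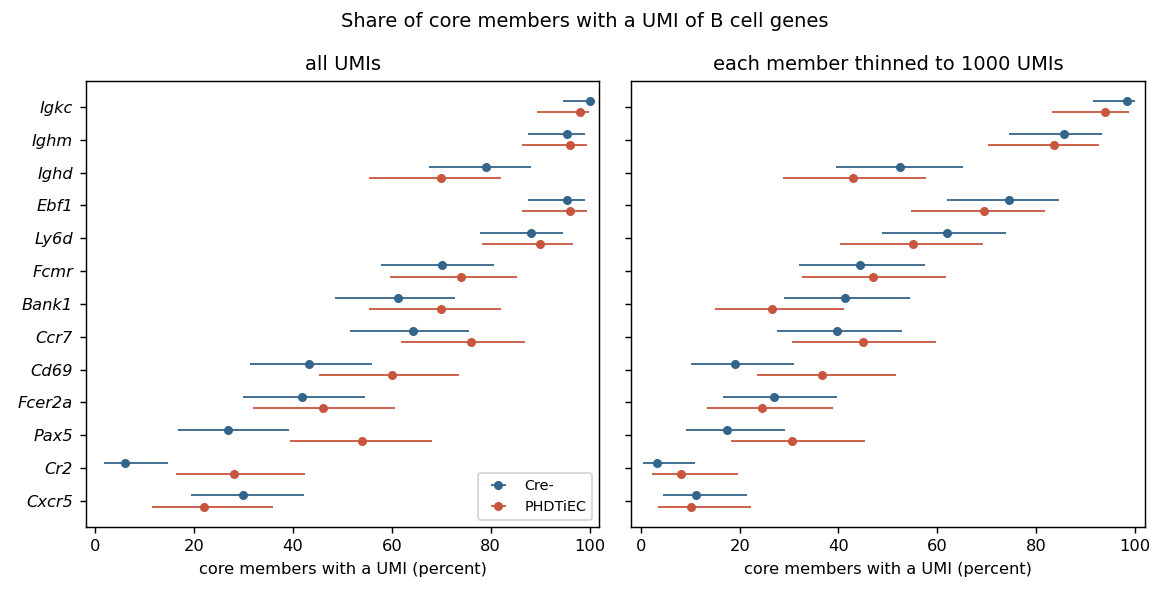
Percent of core members with a UMI of each gene (x axis), with all UMIs (left) and after thinning each member to 1000 UMIs (right), for Cre- (blue) and PHDTiEC (red); bars are exact 95% binomial intervals for counting error. With all UMIs the intervals of Pax5 and of Cr2 do not overlap between the libraries, and after thinning all intervals shown overlap.

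Genes of other B cell states had few UMIs. Of the germinal center list, 6 of 10 genes were detected in core members, with 14 UMIs in Cre- and 16 in PHDTiEC in all. Mki67, a proliferation marker, had 0 UMIs in core members of both libraries, which allows shares of up to 4.48% and 6% of core members with a UMI, and Top2a, also of cycling cells, was counted in 1 core member of each library. Of the immature and transitional list, the recombinase genes Rag1 and Rag2 had 0 UMIs, and Vpreb3 alone entered, with 28 UMIs in Cre- and 42 in PHDTiEC. The B1 list gave 43 and 62 UMIs, and Cd5 had 0 and 1. Tbx21, the T-bet gene of age-associated B cells, had 0 UMIs.

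Cd83, a surface protein induced by receptor signals, was 465 CPM in Cre- and 387 CPM in PHDTiEC. Cd69, an early activation marker, was 254 and 308 CPM and was counted in 29 of 67 and 30 of 50 core members. Nr4a1, induced by antigen receptor signalling, was 552 and 610 CPM. The intervals of their log2 ratios between the libraries all included 0.

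Between the libraries, gene levels in B cells were compared as sums over members, with genes of at least 50 UMIs over both libraries in at least 10 members. Over all members of the rule, 5930 genes entered, of which 65 (1.1%) were at least 2-fold higher in PHDTiEC and 57 (0.961%) at least 2-fold lower. Many of the genes with the largest ratios had few or no UMIs in core members. The 10 highest included Aqp2, the water channel of principal cells (85.2 CPM in Cre- and 295 CPM in PHDTiEC), with 0 UMIs of Aqp2 in core members of either library. Among the 10 lowest, Slc34a1, the phosphate transporter of proximal tubule, fell from 128 to 15.6 CPM, with 87.5% and 94.4% of its UMIs in 1 member.

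In core members, 681 genes entered, of which 12 (1.76%) were at least 2-fold higher in PHDTiEC and 4 (0.587%) at least 2-fold lower. The median log2 ratio over these genes was -0.0081. The 4 lower genes were Iglc1, Fcrla, Ly86 and Slamf6, and the 12 higher ones held no immunoglobulin gene. Nothing here separates genotype from mouse or library.

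Fcrla, an intracellular Fc receptor-like protein of B cells, had 52 UMIs in 26 core members in Cre- and 20 UMIs in 17 core members in PHDTiEC. This was 323 and 131 CPM, a log2 ratio of -1.30 (interval -2.12 to -0.53). Ly86, which encodes MD-1, the partner of the surface protein RP105, was 229 and 112 CPM (37 and 17 UMIs in 27 and 14 core members, log2 ratio -1.04). Slamf6, an adhesion receptor of lymphocytes, was 211 and 105 CPM (34 and 16 UMIs in 22 and 13 core members, log2 ratio -1.01).

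Itga4, the alpha4 integrin chain, was the homing gene past 2-fold. It had 14 UMIs in 13 of 67 core members in Cre- and 36 UMIs in 25 of 50 in PHDTiEC, which was 86.8 and 236 CPM (log2 ratio 1.44, 0.52 to 2.45). Pdcd4, a translation inhibitor, was 174 and 381 CPM (log2 ratio 1.13, 0.46 to 1.84), with at most 12.1% of its UMIs in 1 member. Ctcf, the chromatin insulator protein, was 105 and 223 CPM (log2 ratio 1.08, 0.20 to 2.01). Zfas1, a noncoding host gene of snoRNAs, was 99.2 and 249 CPM (log2 ratio 1.33, 0.45 to 2.27).

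Others of the 10 highest had many of their UMIs in single members that also held genes of other cells. Cxcl2, a neutrophil chemokine, was 80.6 and 341 CPM (log2 ratio 2.08). In PHDTiEC, 25 of its 52 UMIs were in a member that also had 190 UMIs of S100a8 and 280 of S100a9, the neutrophil alarmins. In Cre-, 10 of its 13 UMIs were in a member with 27 UMIs of S100a8 and 36 of S100a9. Jun was 242 and 512 CPM (log2 ratio 1.08), with 50 of its 78 UMIs in PHDTiEC in a member of 8789 UMIs that had 63 UMIs of Emcn and 5 of Cdh5, both endothelial. The same member gave 30 of the 74 Dusp1 UMIs and 20 of the 82 S100a6 UMIs. Without the member with most UMIs of the gene in each library, the log2 ratio of Jun was -0.066 and that of Dusp1 0.63. For S100a6 it was 1.11, but the member left out in PHDTiEC held 30.5% of its UMIs and was not the endothelial one. For Cxcl2 it was 3.25, a ratio that rests on the few UMIs left in Cre-. A limit of 7000 UMIs in both libraries left out the member of 8789 UMIs. The log2 ratio was then 0.99 for S100a6, 0.50 for Dusp1, -0.31 for Jun and 2.17 for Cxcl2. As a mean over members of counts per 10000 it was 0.67, 0.67, 0.069 and 2.03 in that order. Among the 39 and 32 core members without a UMI of 12 genes of other lineages, 349 genes entered and 3 (0.860%) were at least 2-fold higher in PHDTiEC. In these members S100a6 had a log2 ratio of 1.76 and Pdcd4 of 1.58.

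**Figure D5:**
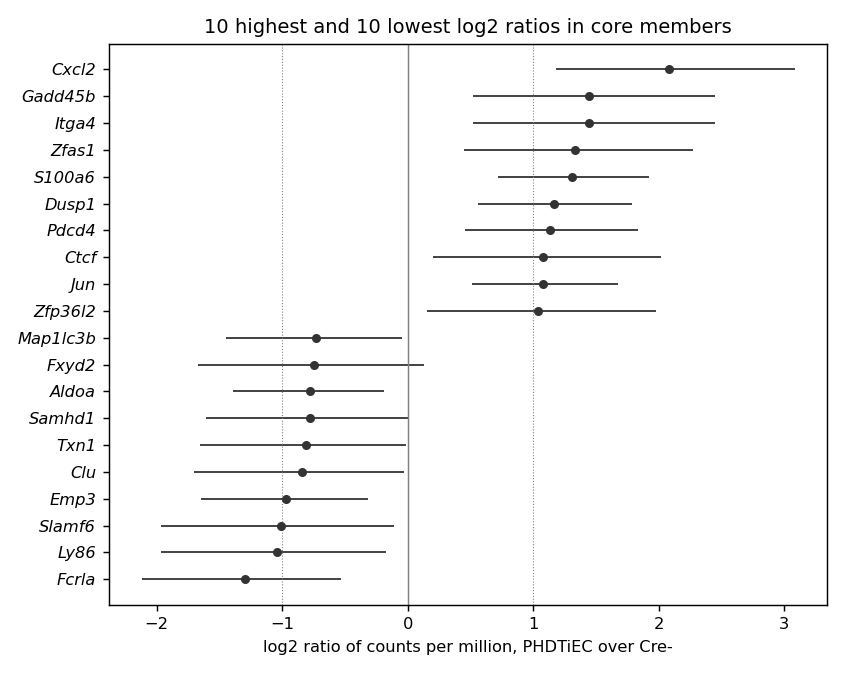
Log2 ratio of CPM in core members, PHDTiEC over Cre- (x axis), for the 10 highest and 10 lowest genes of those that entered, leaving out immunoglobulin and other excluded genes; bars are 95% intervals from the split of the counts and dotted lines mark a 2-fold ratio. Fcrla is lowest at -1.30 and Cxcl2 highest at 2.08, and 3 of the 10 lowest genes, Fcrla, Ly86 and Slamf6, lie past 2-fold.

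The B cell identity list had 18 of 24 genes entering. Of these, 0 were at least 2-fold higher and 1, Fcrla, at least 2-fold lower, against 1.76% and 0.587% of all genes that entered. The median log2 ratio of the list was -0.10, against -0.0081 over all genes that entered. Pax5, the factor that maintains B cell commitment, was nearest to 2-fold higher, with 155 and 302 CPM (log2 ratio 0.96, 0.23 to 1.73). It was counted in 18 of 67 core members in Cre- (26.9%, 16.8 to 39.1%) and 27 of 50 in PHDTiEC (54.0%, 39.3 to 68.2%), and in 0% of neutrophils of both libraries. After thinning to 1000 UMIs, Pax5 was counted in 17.5% (9.05 to 29.1%) and 30.6% (18.3 to 45.4%), so the intervals overlapped.

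The B cell receptor signalling list had 11 of 30 genes entering, with 0 past 2-fold in either direction and a median of -0.06. Syk, the kinase that CD79 recruits, was 279 CPM in Cre- and 210 CPM in PHDTiEC, and the phosphatase gene Ptpn6 was 198 and 282 CPM. Cr2, complement receptor 2, did not enter, with 6 UMIs in 4 of 67 core members in Cre- and 16 UMIs in 14 of 50 in PHDTiEC. Thinned to 1000 UMIs it was counted in 2 of 63 and 4 of 49.

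The MHC class II list had 9 of 16 genes entering, with 0 past 2-fold and a median of -0.10, and 6 of the 9 were below 0. Ctss, the protease that processes the invariant chain, was 428 and 669 CPM (log2 ratio 0.65, 0.19 to 1.11). The follicular list had 7 of 9 entering, with 0 past 2-fold and a median of -0.08, of which Klf2, a factor of quiescent recirculating lymphocytes, was 1321 and 814 CPM (log2 ratio -0.70, -1.03 to -0.37). The homing list had 6 of 18 entering, with 1 higher, Itga4, against 1.76% of all genes that entered, and a median of -0.23.

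The activation list had 8 of 15 genes entering with 0 past 2-fold and a median of 0.09. The immediate early list had 14 of 18 entering, with 2 at least 2-fold higher, Jun and Dusp1, against 1.76% of all genes that entered, and a median of 0.19. That median was -0.13 without the member with most UMIs of each gene, -0.22 with a limit of 7000 UMIs in both libraries and -0.31 in members without the 12 genes of other lineages, so its sign was not stable over these settings. The BAFF and survival list had 2 of 12 entering, Mcl1 and Bcl2a1b, and Tnfrsf13c, the BAFF receptor, had 13 and 17 UMIs. Ifi27l2a was the 1 interferon-induced gene of 25 that entered, at 341 and 387 CPM. The marginal zone list had 2 of 9 genes entering, the plasma cell list 1 of 10 and the cell cycle list 2 of 14, each with 0 past 2-fold, and none of the 9 genes of the age-associated and memory list entered.

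None of the 24 HIF target genes entered in core members. As a sum, this list had 98 UMIs in Cre- and 107 in PHDTiEC, 608 and 702 CPM. Ldha, lactate dehydrogenase A, had 16 and 29 UMIs and Pgk1, a glycolytic kinase, 9 and 10. Egln1 had 6 UMIs in Cre- and 3 in PHDTiEC core members, Egln2 12 and 17, and Egln3 0 in both, at which depth no difference could be detected. Of the glycolysis list, 2 of 17 entered, Aldoa (428 and 249 CPM, log2 ratio -0.78) and Gapdh (285 and 367 CPM, log2 ratio 0.36).

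Among cytokines, Ltb, which encodes lymphotoxin beta, was 608 CPM in Cre- and 630 CPM in PHDTiEC, and it entered with Tgfb1 (304 and 210 CPM). Il10, the cytokine of regulatory B cells, had 0 and 1 UMI, Il6 had 0 and 1, and Ifng had 0 in both. Il1b had 3 and 45 UMIs, with 48.9% of the latter in 1 member. The PHDTiEC core members included 1 with 472 UMIs of neutrophil genes, and its part in the Il1b count was not tested.

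Markers of most other cell types were low in core members. T cell genes gave 70 and 34 UMIs, of which 48 and 33 were Cd2, a gene B cells also use, and Trac and Lat were at 0 in both libraries. Macrophage genes gave 10.0 and 13.3 UMIs per 10000, mostly Apoe, with Adgre1 and Mrc1 at 0. Tubule genes gave 11.3 and 8.86 per 10000, mostly Spp1, and Aqp2 was at 0. Neutrophil genes gave 66 and 475 UMIs, in 2 and 4 members, or 4.09 and 31.2 per 10000. Endothelial genes gave 11 and 112 UMIs, or 0.682 and 7.35 per 10000. In PHDTiEC, 472 of the 475 and 101 of the 112 UMIs were in 1 member each. Dendritic cell genes gave 11 and 13 UMIs, with Flt3 and Siglech at 0. NK genes gave 0 and 1 UMI, stromal genes 7 and 10, and haemoglobin genes 0 and 4. Their part in the differences between libraries, beyond the genes named above, was not tested.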

How the data were processed

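Single-cell RNA was measured with the 10X Chromium 3′ v3.1 kit in the injured kidney of 1 Cre- and 1 PHDTiEC mouse. Per the submitters' processing notes, the authors used Cell Ranger on mm10 and deposited whole-number UMI counts per gene and barcode, unfiltered and not normalized; the deposited barcode and gene lists hold no measured values. Kept barcodes had 500 to 100000 UMIs, at least 200 genes, at most 50% mitochondrial UMIs and a complexity (log10 of the gene number divided by log10 of the UMI number) of 0.8 or more. Symbols with several identifiers were summed.

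UMI counts were summed per library over members and divided by the total (CPM). Log2 ratios carry the exact binomial 95% interval of the split of counts, and shares the Clopper-Pearson interval; the ratio of shares carries a log-normal interval. All cover counting error only. The interval was tested on simulated Poisson sums per library. These leave out the gathering of UMIs in single members, so the test does not show its coverage in these data. A count of 0 was bounded at 3 counts. Members and lists were chosen with earlier results of these data known. Named genes were the rule genes, Egln genes, list genes, the 10 highest and 10 lowest ratios between libraries without mitochondrial, ribosomal protein, haemoglobin, immunoglobulin and sex-linked genes, 25 genes against other barcodes and the 5 most used V genes per chain; in the text a selection of them is given, and some are not reported here. Comparator classes were chosen by marker sums (at least 3 UMIs of Cd3d, Cd3e and Cd3g for T cells, for example), and barcodes in several classes were left out. Doublets were not called or removed. Coordinates are GENCODE vM21 (GRCm38). Python 3.11.15, scipy 1.17.1 and edgeR 4.0.16 (TMM scaling alone) were used; no p-value was computed.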

Additional observations from a re-analysis of the deposited data

How the results depend on the processing

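The share ratio of all members was below 1 under all but 1 of the alternatives. It was 1.51 (0.767 to 2.98) where barcodes needed 10% of the UMIs of the barcode ranked 100 (86059 and 82687 UMIs). This left 13 and 23 members. Core members had at most 6531 and 8789 UMIs, so none in Cre- reached that limit and 1.51 does not describe core members. The interval of the share ratio left out 1 without deep members, with Cd79a or Ms4a1 required and in core members. The core ratio ran from 0.647 to 0.861. Genes at least 2-fold higher among all members numbered 65 of 5930, and lower 57. With a marker sum of at least 6 they numbered 103 and 23 of 1133, of at least 2 95 lower of 9051, without deep members 11 and 6 of 720 (1.53% and 0.833%), with Cd79a or Ms4a1 required 41 and 96 of 1830, in core members 12 and 4 of 681 (1.76% and 0.587%), in members without a UMI of 12 other-lineage genes 85 and 22 of 598 (14.2% and 3.68%), as a mean per 10000 UMIs 932 and 193 of 5930, at 20 UMIs in 5 members 291 and 233 of 9097, at 200 in 20 9 and 10 of 1599, and without the top member of each gene 141 higher of 5930. The number of genes that entered differed between these settings. In core members, against 12 higher and 4 lower of 681, members without a UMI of those 12 genes gave 3 higher of 349, TMM scaling 7 higher of 681, a limit of 7000 UMIs 7 and 2 of 657, 20 UMIs in 5 members 105 and 57 of 1927, 200 in 20 0 and 0 of 163, the mean per 10000 UMIs 1 lower, and ambient subtraction 9 lower. The median log2 ratio of all genes was -0.12 under TMM, -0.041 without mitochondrial, ribosomal and immunoglobulin genes, 0.067 and -0.11 at the lower and higher minimum, and -0.039 without the top member; that of MHC class II was -0.21 under TMM and -0.17 without those genes, and that of immediate early genes -0.31 in members without other-lineage genes, -0.13 without the top member and -0.22 at 7000 UMIs. Thinned to 1000 UMIs, Ighm was in 85.7% and 83.7% of core members, Ighd in 52.4% and 42.9%, and in PHDTiEC Pax5 in 30.6% and Cr2 in 8.16%. Against other barcodes, 24 of 179 genes (13.4%) passed in members without other-lineage genes, 95 of 680 (14.0%) at 50 UMIs and 10% of members, and 25 of 2970 (0.842%) over all members, against 44 of 299 (14.7%). The sign changed for Sprr2f (-0.54, marker sum of at least 2), Lyz2 (0.51, at least 6), Mgp (-0.93) and Gstm1 (0.32) without their top member, and Jun (-0.066 without its top member and -0.31 at 7000 UMIs). The core set, the requirement of Cd79a or Ms4a1, the 7000 UMI limit and the minimum of 50 UMIs and 10% were chosen after seeing the data. Causes were not tested. No paired analysis was possible because each genotype has 1 library, and no replicate could be left out.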

Other observations

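Cd79b was also counted in barcodes outside the B cell members. In macrophages it had 563 UMIs beside 11 of Cd79a in Cre- and 619 beside 27 in PHDTiEC, 23.3 and 22.4 CPM. In barcodes with at least 5 UMIs of Atp6v1g3 it had 90 beside 9 and 143 beside 6, and in barcodes with at least 20 UMIs of Aqp2 and Fxyd4, genes of the collecting duct, 111 beside 1 and 174 beside 2. Barcodes under 100 UMIs, which hold free RNA, had 49 UMIs of Cd79b beside 13 of Cd79a in Cre- and 54 beside 20 in PHDTiEC. T cells had 62 UMIs of Cd79b beside 58 of Cd79a in Cre- and 48 beside 29 in PHDTiEC, and 24 and 21 of Ms4a1. The Atp6v1g3 class and the Aqp2 and Fxyd4 class leave out all members of the rule, also those with Cd79b only. These values are a description.

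Ighm was also counted outside B cells. Macrophages had Ighm in 61.8% of barcodes in Cre- and 57.4% in PHDTiEC (157 and 135 CPM), and dendritic cells in 66.4% and 67.9% (118 and 132 CPM), while Igkc was counted in 0.896% and 0.450% of macrophages. Proximal tubule barcodes, which were deeper, had Ighm in 2.04% and 1.92%. Ighm alone did therefore not mark B cells here.

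Ligands of B cell niches were counted mainly in other classes. Tnfsf13b, which encodes BAFF, was 21.1 CPM in Cre- and 20.6 CPM in PHDTiEC macrophages and 20.0 and 23.3 CPM in fibroblasts. Tnfsf13, which encodes APRIL, was 63.0 and 51.3 CPM in macrophages. Cxcl12 was 63.7 CPM in Cre- and 176 CPM in PHDTiEC endothelium, and 50.5 and 54.7 CPM in fibroblasts. Cxcl13, the follicular chemokine, was at most 1.81 CPM in any class, and Ccl19 at most 13.8 CPM, in fibroblasts of PHDTiEC. In core members, 2 of the 11 ligands had a UMI.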
